A study of Mus musculus with 4 samples.

Results

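The collagen chain genes of the mouse were followed in retinal aggregates between day 4 and day 7 of differentiation. Members were all genes whose symbol has the form Col, number, a, number in the annotation of the array, and 44 genes of 22180 measured carried such a symbol. The rule that picks the members reads the symbols alone. All 44 had at least 1 probe set (the group of array probes read together for a transcript) naming no other gene, so every member was measured. Gene expression was measured on 4 Affymetrix gene arrays, 2 of aggregates collected at day 4 and 2 at day 7. All 4 came from 1 line of embryonic stem cells, EB5 of mouse strain 129/Ola, labelled wild type and carrying a GFP knock-in driven by the promoter of Rx (also called Rax), an eye field gene. Aggregates of both days were grown in retinal differentiation medium with 3% matrigel, and the labels name no other treatment. The series is titled for R-spondin 2 in optic vesicle formation, and its design sets day 7 against day 4. Whether the 2 samples of a day were separate cultures is not given in the labels. The p-values therefore cover only how far these samples differ from each other, and that spread may be technical.

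Collagens are proteins of 3 chains wound into a triple helix, made of 1, 2 or 3 different gene products. Fibrillar collagens assemble into the banded fibrils of connective tissue, cartilage and the vitreous of the eye. Network collagens form sheets, with type IV as the scaffold of basement membranes such as those around the optic vesicle. FACIT collagens sit on the surface of fibrils, and the remaining types include the beaded filaments of type VI, membrane-spanning chains and the chains of types XV and XVIII in basement membranes. Matrigel is itself a basement membrane extract that holds collagen IV protein, whereas the arrays measured RNA.

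Of the 44 collagen genes, 8 rose from day 4 to day 7 and 0 fell, by limma with p-values adjusted over all 22180 genes and a call at an adjusted p under 0.05. At an unadjusted p under 0.05 there were 14, where 23.1% of all genes passed. Over all genes measured, 6.15% were called higher and 4.33% lower. Among the 13118 genes whose mean signal lay within the range of the collagen genes, 7.17% were called higher. The 8 were the fibrillar chains Col11a1, Col2a1, Col5a1 and Col5a2, the basement membrane chains Col4a2 and Col4a6, the fibril-associated chain Col12a1, and Col26a1. Their rises were 1.56-fold to 3.64-fold, from log2 differences of 0.64 to 1.86. The other 36 were not called, and a p that misses the threshold does not show that their levels were equal.

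Leaving out day 4 replicate 2 gave 13 calls, leaving out day 7 replicate 1 gave 5 and leaving out day 7 replicate 2 gave 3. Col11a1, Col2a1 and Col26a1 were called under every alternative in which they were tested, and Col11a1 was not among the genes above the 50th percentile.

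By class, 4 of 11 fibrillar genes rose, 2 of 9 network genes, 1 of 9 FACIT genes and 1 of 15 in the remaining types. These are shares of 36.4%, 22.2%, 11.1% and 6.67%, against 6.15% of all genes and 7.17% of genes in the same range of signal. The median log2 difference was 0.638 over the fibrillar genes, 0.170 over the network genes, 0.038 over the FACIT genes and 0.044 over the rest. Over all 44 it was 0.120, and over all 22180 genes -0.004. The median of the 44 was -0.027 without day 4 replicate 1. Both day 7 arrays read above both day 4 arrays for 16 of the 44 collagen genes, against 25.6% of all genes. These 16 were 8 of 11 fibrillar, 4 of 9 network, 2 of 9 FACIT and 2 of 15 other genes. The classes also differed in signal, with a mean above the 50th percentile of gene means in 6 of 11 fibrillar, 2 of 9 network, 1 of 9 FACIT and 3 of 15 other genes. The differences between classes, and the part of signal level in them, were not tested.

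**Figure D1:**
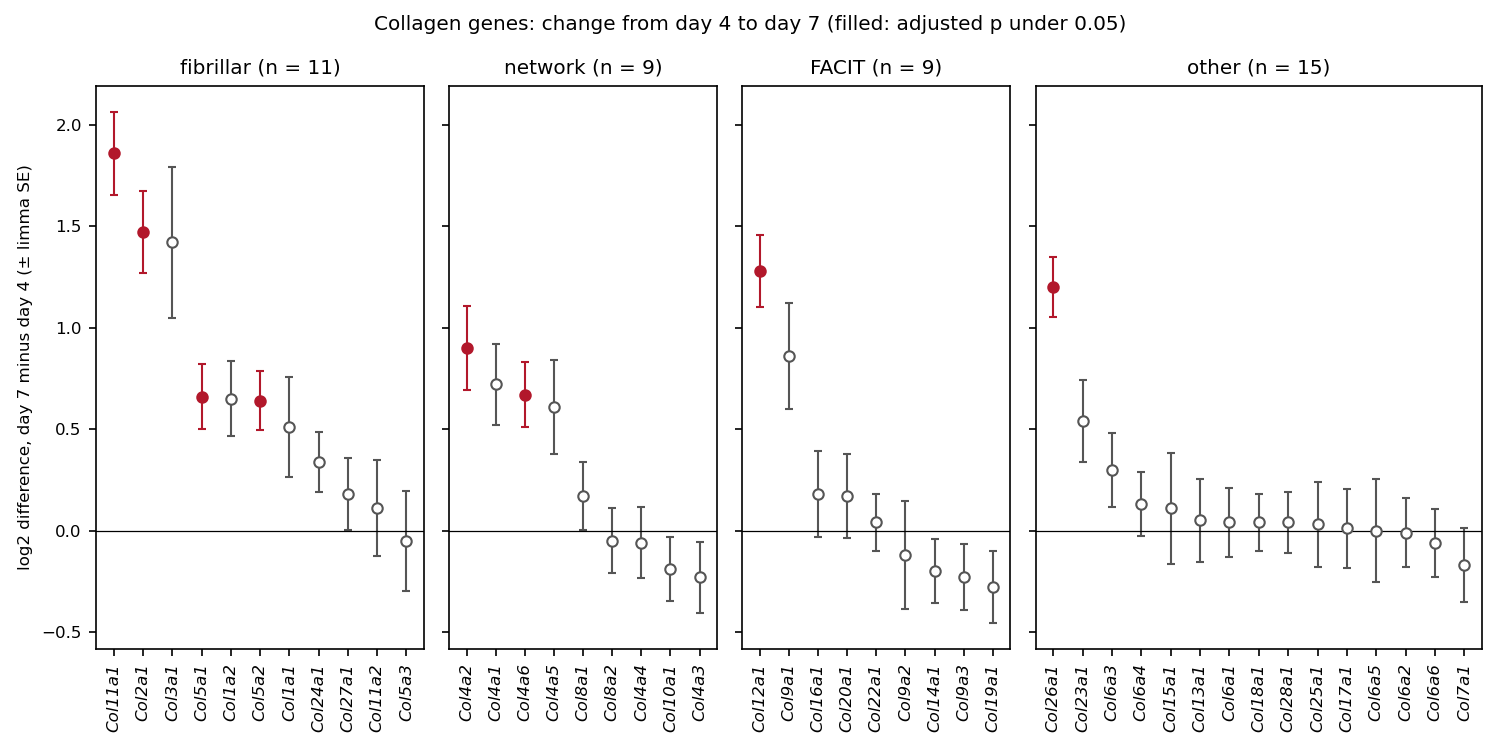
Log2 difference of each of the 44 collagen genes, day 7 minus day 4, grouped by class on the x axis. Bars are limma standard errors and filled red points are the 8 genes with an adjusted p under 0.05; the fibrillar panel holds 4 of them, and no gene lies below -0.28.

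The arrays were alike in their overall distribution, with medians of 5.68 to 5.77 on the log2 signal scale. Over all probe sets Pearson's r was 0.986 for the day 4 pair, 0.991 for the day 7 pair and 0.972 to 0.978 for arrays of different days. These are correlations across probe sets within a pair of arrays, and probe sets are not independent replicates. The collagen genes nevertheless differed between replicates in a shared direction. At day 4, 41 of 44 read higher in replicate 2 than in replicate 1, with a median gap of 0.37 log2, against 51.5% of all genes with a median of 0.01. Among genes within the range of signal of the collagen genes the share was 58.2%. At day 7, 39 of 44 read higher in replicate 2, with a median gap of 0.14, against 47.3% of all genes and 55% of genes in that range of signal. The median over the 44 genes was 5.35 and 5.77 on the day 4 arrays and 5.83 and 6.04 on the day 7 arrays. The exceptions at day 4 were Col4a1, Col4a2 and Col26a1, which read lower in replicate 2.

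**Figure D2:**
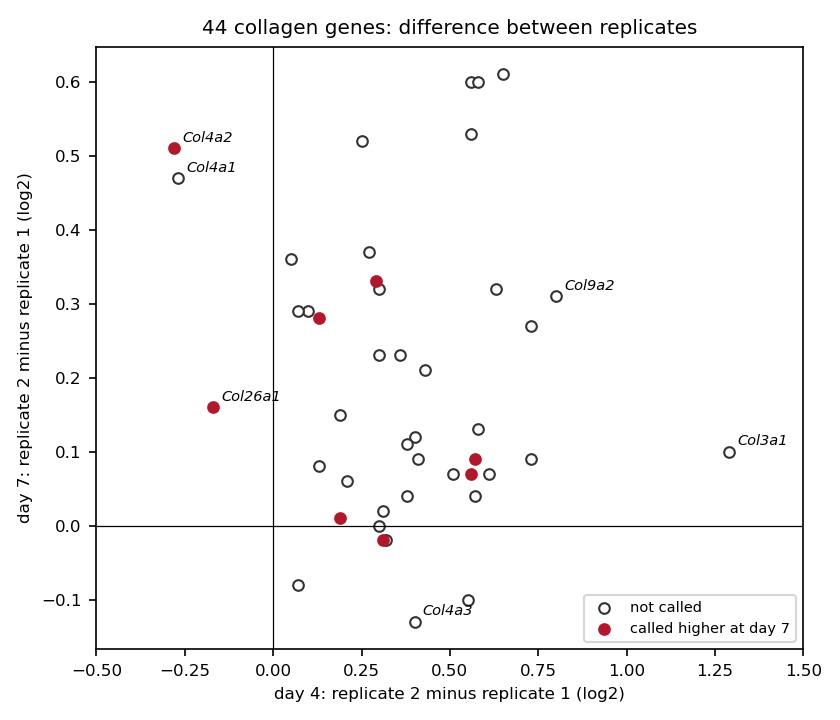
Replicate 2 minus replicate 1 on the log2 scale for each of the 44 collagen genes, at day 4 on the x axis and at day 7 on the y axis. Of the 44, 41 lie to the right of 0 and 39 above 0; Col3a1 has the widest gap at day 4, 1.29 log2, and Col4a1, Col4a2 and Col26a1 are the 3 to the left of 0.

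The fibrillar genes hold the widest rises. Col11a1 encodes a chain of type XI collagen, a minor fibrillar type that sets the width of cartilage and vitreous fibrils. It read 5.02 and 5.59 on the day 4 arrays and 7.12 and 7.22 on the day 7 arrays (log2 signal, replicates 1 and 2). Both day 7 values stood far above both day 4 values. The rise was 3.64-fold (log2 difference 1.86, SE 0.205, adjusted p = 0.00197).

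Col2a1 encodes type II collagen, the main fibril of cartilage and the vitreous, and its chain is also used in type XI trimers. It read 6.59 and 7.16 at day 4 and 8.31 and 8.38 at day 7. The days were apart, and the rise was 2.77-fold (log2 difference 1.47, SE 0.203, adjusted p = 0.00501). The other type XI gene, Col11a2, read 5.06 and 5.79 at day 4 and 5.49 and 5.58 at day 7, where both day 7 values lay between those of day 4 (log2 difference 0.11, SE 0.238, adjusted p = 0.869).

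Type V collagen starts and sizes the fibrils of type I, and 2 of its 3 chain genes rose. Col5a1 read 6.57 and 6.88 at day 4 and 7.40 and 7.38 at day 7, a rise of 1.58-fold (log2 difference 0.66, SE 0.159, adjusted p = 0.043). Col5a2 read 5.55 and 5.74 at day 4 and 6.28 and 6.29 at day 7, a rise of 1.56-fold (log2 difference 0.64, SE 0.144, adjusted p = 0.0339). For both genes the days did not overlap and the day 7 replicates lay within 0.02 log2 of each other. Col5a3 had overlapping days, 5.62 and 6.18 against 5.58 and 6.11 (log2 difference -0.05, adjusted p = 0.949).

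The calls of Col5a1 and Col5a2 were weak. Their adjusted p rose to 0.127 and 0.103 without day 4 replicate 1, to 0.227 and 0.192 without day 7 replicate 1 and to 0.205 and 0.195 without day 7 replicate 2, and that of Col5a2 to 0.0506 with an intensity trend in the variance prior. Col5a1 had a second, dimmer probe set that read 5.09, 5.27, 4.96 and 5.52 on the 4 arrays (day 4 first), and with the mean of both probe sets the adjusted p was 0.26.

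Col3a1, Col1a1 and Col1a2 encode the chains of types III and I, the main fibrils of loose connective tissue, and none was called. Col3a1 read 5.31 and 6.61 at day 4 and 7.33 and 7.43 at day 7 (log2 difference 1.42, SE 0.371, adjusted p = 0.0562). Both day 7 values were above day 4, but the day 4 replicates were 1.29 log2 apart. With the limit kept at 0.05, Col3a1 was called under 7 of the alternatives, its adjusted p being 0.000444 when day 4 replicate 2 was left out, 0.0335 when day 4 replicate 1 was, 0.0257 in the blocked fit by replicate number, 0.0123 with each array centred on its median, 0.0347 among genes above the 50th percentile, and 0.0222 and 0.0275 with an intensity trend alone or with robust estimation. The highest adjusted p among the others was 0.235, without day 7 replicate 2. Its fold of 2.68 became 1.71 without day 4 replicate 1 and 4.2 without day 4 replicate 2.

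Col1a2 read 6.07 and 6.50 at day 4 and 6.83 and 7.03 at day 7 (log2 difference 0.65, SE 0.185, adjusted p = 0.0759). A second probe set of Col1a2 read 4.10 to 4.28 on the 4 arrays, with a log2 difference of 0.08. The adjusted p of the first was 0.0232 without day 4 replicate 2, 0.0326 in the blocked fit, 0.0321 with centred arrays and 0.0387 among genes above the 50th percentile. Col1a1, whose chain joins that of Col1a2 in type I trimers, read 5.79 and 6.52 at day 4 and 6.52 and 6.80 at day 7 (log2 difference 0.51, SE 0.247, adjusted p = 0.289). Its lower day 7 value lay just above the higher day 4 value, and its adjusted p was 0.0268 without day 4 replicate 2. Col24a1 and Col27a1, chains of minor fibrillar types, had log2 differences of 0.34 (adjusted p = 0.225) and 0.18 (adjusted p = 0.656).

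**Figure D3:**
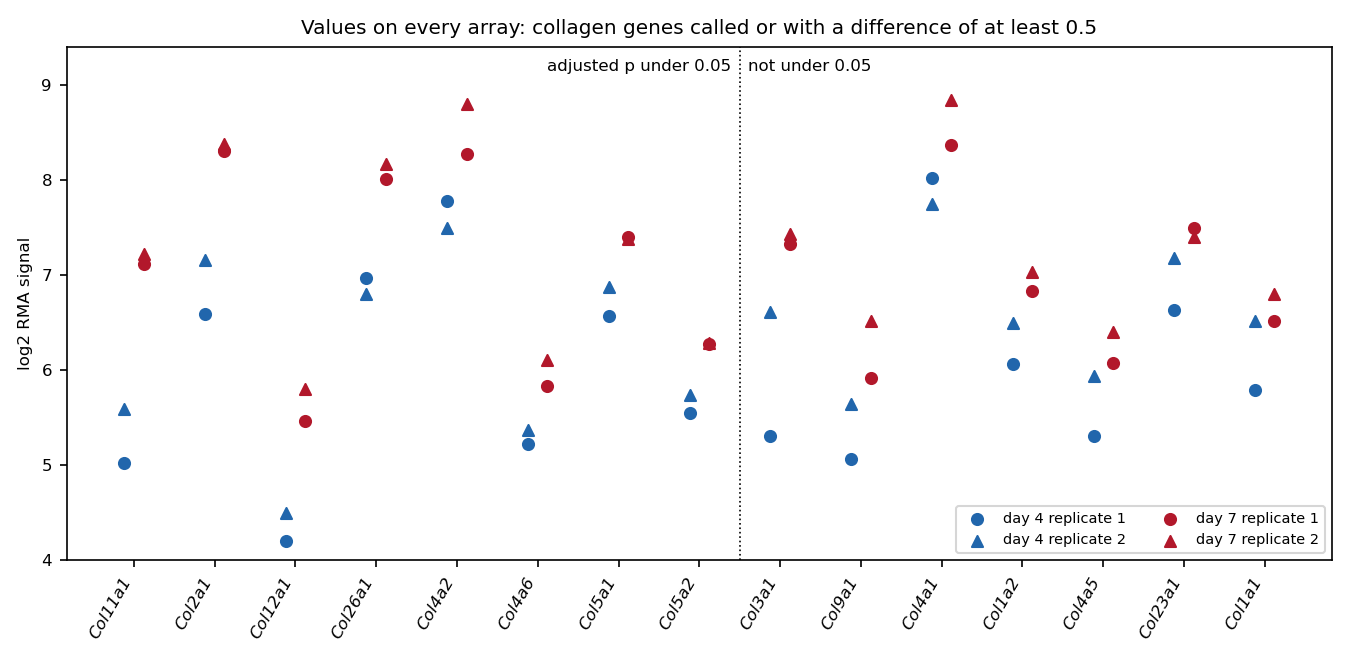
Log2 RMA signal on each of the 4 arrays for the 8 collagen genes that were called (left of the dotted line) and the 7 others with a log2 difference of at least 0.5 (right). Blue marks are day 4, red marks day 7, circles replicate 1 and triangles replicate 2; all 15 genes have both red marks above both blue marks, and Col3a1 has the widest spread of blue marks.

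Among the network collagens 2 of the 6 type IV genes rose, Col4a2 and Col4a6. Type IV trimers in mammals are made from Col4a1 with Col4a2, from Col4a3, Col4a4 and Col4a5, or from Col4a5 with Col4a6. Col4a2 read 7.78 and 7.50 at day 4 and 8.28 and 8.80 at day 7, a rise of 1.86-fold (log2 difference 0.90, SE 0.206, adjusted p = 0.0359). Its partner Col4a1, the other chain of the ubiquitous type IV trimer, read 8.02 and 7.75 at day 4 and 8.37 and 8.84 at day 7 (log2 difference 0.72, SE 0.198, adjusted p = 0.0663). The genes moved alike array by array, with replicate 2 below replicate 1 at day 4 and above it at day 7 in both. Neither gene's days overlapped. Leaving out day 4 replicate 2 raised the adjusted p of Col4a2 to 0.0882, and leaving out day 7 replicate 2 raised it to 0.214. That of Col4a1 was 0.026 with each array centred on its median, 0.0347 among genes above the 50th percentile, 0.0305 with an intensity trend and 0.0247 with a trend and robust estimation.

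Col4a6 read 5.23 and 5.37 at day 4 and 5.83 and 6.11 at day 7, a rise of 1.6-fold (log2 difference 0.67, SE 0.159, adjusted p = 0.0399). Col4a5, which shares trimers with Col4a6, read 5.31 and 5.94 at day 4 and 6.08 and 6.40 at day 7 (log2 difference 0.61, SE 0.231, adjusted p = 0.166). The adjusted p of Col4a5 was 0.0241 without day 4 replicate 2 and 0.0453 in the blocked fit. In both genes all day 7 values lay above those of day 4. The adjusted p of Col4a6 was 0.108, 0.102 and 0.267 without day 4 replicate 1, day 7 replicate 1 and day 7 replicate 2, and 0.0506 with an intensity trend. Col4a3 and Col4a4, the chains of the mature kidney and lung trimer, had overlapping days and log2 differences of -0.23 (adjusted p = 0.542) and -0.06 (adjusted p = 0.914). Their array values ran from 4.55 to 5.41, and those of the 5 network genes with a difference under 0.5 from 4.39 to 5.53. The 3 others of these, the type VIII genes Col8a1 and Col8a2 of vessel and corneal membranes and the growth plate gene Col10a1, had overlapping days and log2 differences of 0.17, -0.05 and -0.19.

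The paired layout of type IV genes shows in their promoter windows. RefSeq promoter windows of 300 bases on GRCm38.p6 (250 before and 50 after a transcript start, strain C57BL/6J) matched 35 of the 44 collagen genes with 38 windows, and 4 of the 8 genes that rose. The windows of Col4a1 (minus strand) and Col4a2 (plus strand) share 78 bases, because the genes start back to back. Those of Col4a5 (plus strand) and Col4a6 (minus strand), which also point away from each other, lie 842 bases apart. The stretches below are the window bases upstream of the outermost annotated start of 2 fibrillar genes that rose and of the Col4a5 and Col4a6 pair, shown because Col11a1 and Col5a1 are the fibrillar genes that rose and have a window, and Col4a5 and Col4a6 a neighbouring pair with log2 differences of 0.61 and 0.67. Each is 5′ to 3′ on the strand of its gene, and capitals mark a CCAAT box (CCAAT) or a GC box (GGGCGG) on either strand. Col11a1 lies at chr3:114030290-114030478 (plus), Col5a1 at chr2:27886175-27886380 (plus), Col4a5 at chrX:141475169-141475369 (plus) and Col4a6 at chrX:141474096-141474326 (minus).
Col11a1: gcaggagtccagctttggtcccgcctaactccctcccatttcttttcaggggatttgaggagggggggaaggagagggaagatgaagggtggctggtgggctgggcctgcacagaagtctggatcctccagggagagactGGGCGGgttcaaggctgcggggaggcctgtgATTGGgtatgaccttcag
Col5a1: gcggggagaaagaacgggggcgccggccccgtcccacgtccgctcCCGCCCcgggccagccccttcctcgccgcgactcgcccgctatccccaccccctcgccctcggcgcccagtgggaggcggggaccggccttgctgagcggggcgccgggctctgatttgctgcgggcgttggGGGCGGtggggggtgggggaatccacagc
Col4a5: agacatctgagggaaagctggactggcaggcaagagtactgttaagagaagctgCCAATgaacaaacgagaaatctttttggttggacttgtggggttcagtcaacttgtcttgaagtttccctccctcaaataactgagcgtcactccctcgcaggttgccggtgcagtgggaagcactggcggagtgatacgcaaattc
Col4a6: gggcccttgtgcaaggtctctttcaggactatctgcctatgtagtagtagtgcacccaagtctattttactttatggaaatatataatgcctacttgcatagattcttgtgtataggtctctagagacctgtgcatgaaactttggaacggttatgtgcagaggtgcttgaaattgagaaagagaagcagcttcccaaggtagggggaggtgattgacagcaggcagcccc

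The Col11a1 stretch holds 1 GC box and 1 CCAAT box, that of Col5a1 holds 2 GC boxes, that of Col4a5 holds 1 CCAAT box and that of Col4a6 holds 0 of either. In the full windows, a GC box was found in 23 of 38 collagen windows (60.5%) and in 35.7% of all 32851 RefSeq windows. All 4 of the matched genes that rose (Col11a1, Col5a1, Col4a2 and Col4a6) had 1 or more. A CCAAT box was found in 34.2% of collagen windows and 37.4% of all windows. A TATA box (TATAAA) was found in 13.2% and 13.6%, and a core Sox motif (AACAAT) in 2.63% and 10.7%, all searched on both strands. Collagen windows had a median GC content of 59.8% and all windows 52.7%. A match describes the letters only.

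Of the FACIT genes only Col12a1 was called. Type XII collagen coats type I fibrils in tissues under tension. Col12a1 read 4.21 and 4.50 at day 4 and 5.47 and 5.80 at day 7, with the days well apart. The rise was 2.42-fold (log2 difference 1.28, SE 0.179, adjusted p = 0.00531, and 0.0507 without day 7 replicate 2). Its day 4 mean of 4.36 was below 4.60, the 25th percentile of all gene means. Background left in a signal as dim as this may make a fold smaller than the true change.

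Type IX collagen binds type II fibrils in cartilage and the vitreous and is made from 3 different chains. Its gene Col9a1 read 5.07 and 5.65 at day 4 and 5.92 and 6.52 at day 7 (log2 difference 0.86, SE 0.259, adjusted p = 0.0905). The days did not overlap, but the replicates were 0.58 log2 apart at day 4 and 0.60 at day 7. Col9a1 was called in the blocked fit (adjusted p = 0.0109), with each array centred on its median (0.0277) and without day 4 replicate 2 (0.0284). Col9a2 read 7.17 and 7.97 at day 4 and 7.29 and 7.60 at day 7, and Col9a3 5.92 and 6.25 against 5.87 and 5.85. Neither of those chains was called (log2 differences -0.12 and -0.23, adjusted p = 0.865 and 0.498). The other 5 FACIT genes, Col14a1, Col16a1, Col19a1, Col20a1 and Col22a1, had log2 differences of -0.28 to 0.18.

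Among the 15 genes of the remaining types only Col26a1 rose. It encodes a small secreted collagen with an EMI domain. Col26a1 read 6.97 and 6.80 at day 4 and 8.01 and 8.17 at day 7, so that the days were more than 1 log2 apart. The rise was 2.3-fold (log2 difference 1.20, SE 0.149, adjusted p = 0.00318). Col23a1, a membrane-spanning collagen, read 6.63 and 7.18 at day 4 and 7.50 and 7.40 at day 7 (log2 difference 0.54, SE 0.201, adjusted p = 0.159). Its adjusted p was 0.0227 without day 4 replicate 2.

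The type VI genes, whose products form beaded filaments around cells, had overlapping days throughout. Col6a1 read 6.06 and 6.45 at day 4 and 6.28 and 6.32 at day 7, Col6a2 6.09 and 6.47 against 6.22 and 6.33, and Col6a3 4.71 and 4.98 against 4.96 and 5.33. These 3 chains form the common type VI trimer, and their log2 differences were 0.04, -0.01 and 0.30 (adjusted p = 0.931, 0.993 and 0.42). Col6a4, Col6a5 and Col6a6 had log2 differences of 0.13, 0.00 and -0.06.

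Col18a1, a basement membrane collagen and the source of endostatin, read 7.95 and 8.08 at day 4 and 8.02 and 8.10 at day 7. Its log2 difference was 0.04 (SE 0.142, adjusted p = 0.917). The related Col15a1 read 3.90 and 4.55 against 4.04 and 4.64, among the dimmest members. The anchoring fibril gene Col7a1 had a log2 difference of -0.17, the membrane-spanning Col13a1, Col17a1 and Col25a1 of 0.05, 0.01 and 0.03, and Col28a1 of 0.04. Of the 44 genes, 5 had a mean below the 25th percentile over genes (Col14a1, Col19a1, Col6a5, Col15a1 and Col28a1), and 12 had a mean above the median gene.

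The genes that make, export, cross-link and bind collagen were taken from lists written from textbook knowledge. Of 65 measured, 12 rose (18.5%) and 1 fell, with a median log2 difference of 0.205. Over all genes 6.15% were called higher and 4.33% lower, with a median of -0.004, and the count of each list stands beside these shares. Without day 7 replicate 2 the calls were 7 higher and 0 lower. In the list of chain modification and folding 3 of 18 rose. Serpinh1, the collagen-specific chaperone Hsp47, read 9.68 and 9.59 at day 4 and 10.43 and 10.57 at day 7, a rise of 1.82-fold (adjusted p = 0.00981, rising to 0.0664 without day 7 replicate 1 and to 0.095 without replicate 2). P3h2, a prolyl 3-hydroxylase, rose 2.48-fold (adjusted p = 0.00237). Fkbp14, a prolyl isomerase of the endoplasmic reticulum, rose 2.06-fold (adjusted p = 0.00666, rising to 0.0633 without day 7 replicate 1 and to 0.0604 without replicate 2). The prolyl 4-hydroxylase genes P4ha1 and P4ha2 had log2 differences of -0.07 (adjusted p = 0.922) and -0.32 (adjusted p = 0.227). The lysyl hydroxylase genes Plod1 and Plod2 had 0.12 (adjusted p = 0.715) and 0.21 (adjusted p = 0.677). In the export list 0 of 9 genes were called, with 2 at an unadjusted p under 0.05, a share close to the 23.1% of all genes.

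Outside the cell, collagen propeptides are cut off and chains are cross-linked, and in this list 4 of 13 genes rose and 1 fell. Adamts3, a protease that removes amino-terminal propeptides, read 4.98 and 5.07 at day 4 and 7.98 and 8.17 at day 7. Its rise of 8.29-fold (log2 difference 3.05, SE 0.146, adjusted p = 9.78e-05) was the widest among the pathway genes. Bmp1, which cuts the carboxy-terminal propeptides of fibrillar chains, rose 2.34-fold (adjusted p = 0.00296). Pcolce2, an enhancer of that cleavage, read 8.90 and 8.78 at day 4 and 8.05 and 7.35 at day 7. It was 2.21-fold lower at day 7 (adjusted p = 0.0226, rising to 0.058 without day 4 replicate 1 and to 0.0993 without day 7 replicate 2). The cross-linking genes Loxl1 and Loxl3 rose 2.34-fold (adjusted p = 0.00232) and 2.06-fold (adjusted p = 0.0266, rising to 0.155 without day 7 replicate 1 and to 0.136 without replicate 2). Lox, the founding member of that family, read 4.65 and 4.79 against 4.79 and 4.86 (adjusted p = 0.745).

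Of 11 collagen receptor genes 2 rose. Adgrg1, also called Gpr56, a receptor of neural progenitors that binds type III collagen, read 7.22 and 7.45 at day 4 and 10.15 on both day 7 arrays. The rise was 7.04-fold (adjusted p = 0.000137). Ddr2, a kinase receptor for fibrillar collagens, read 6.25 and 6.07 at day 4 and 6.97 and 7.61 at day 7, a rise of 2.19-fold (adjusted p = 0.0203, and 0.102 without day 7 replicate 2). The related Ddr1 had a log2 difference of 0.28 (adjusted p = 0.291). Of 14 genes of matrix partners 3 rose: Postn 2.99-fold (adjusted p = 0.00109), Lum 2.3-fold (adjusted p = 0.0249, rising to 0.0524 without day 4 replicate 2 and to 0.102 without day 7 replicate 1) and the basement membrane linker Nid1 2-fold (adjusted p = 0.0355). Lum was dim, with means of 3.31 at day 4 and 4.51 at day 7 that both lie below the 25th percentile of gene means, and Postn was dim at day 4 with a mean of 4.11, so their folds may be smaller than the true changes. The adjusted p of Nid1 was 0.0676, 0.0689 and 0.158 without day 4 replicate 1, day 4 replicate 2 and day 7 replicate 2.

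**Figure D4:**
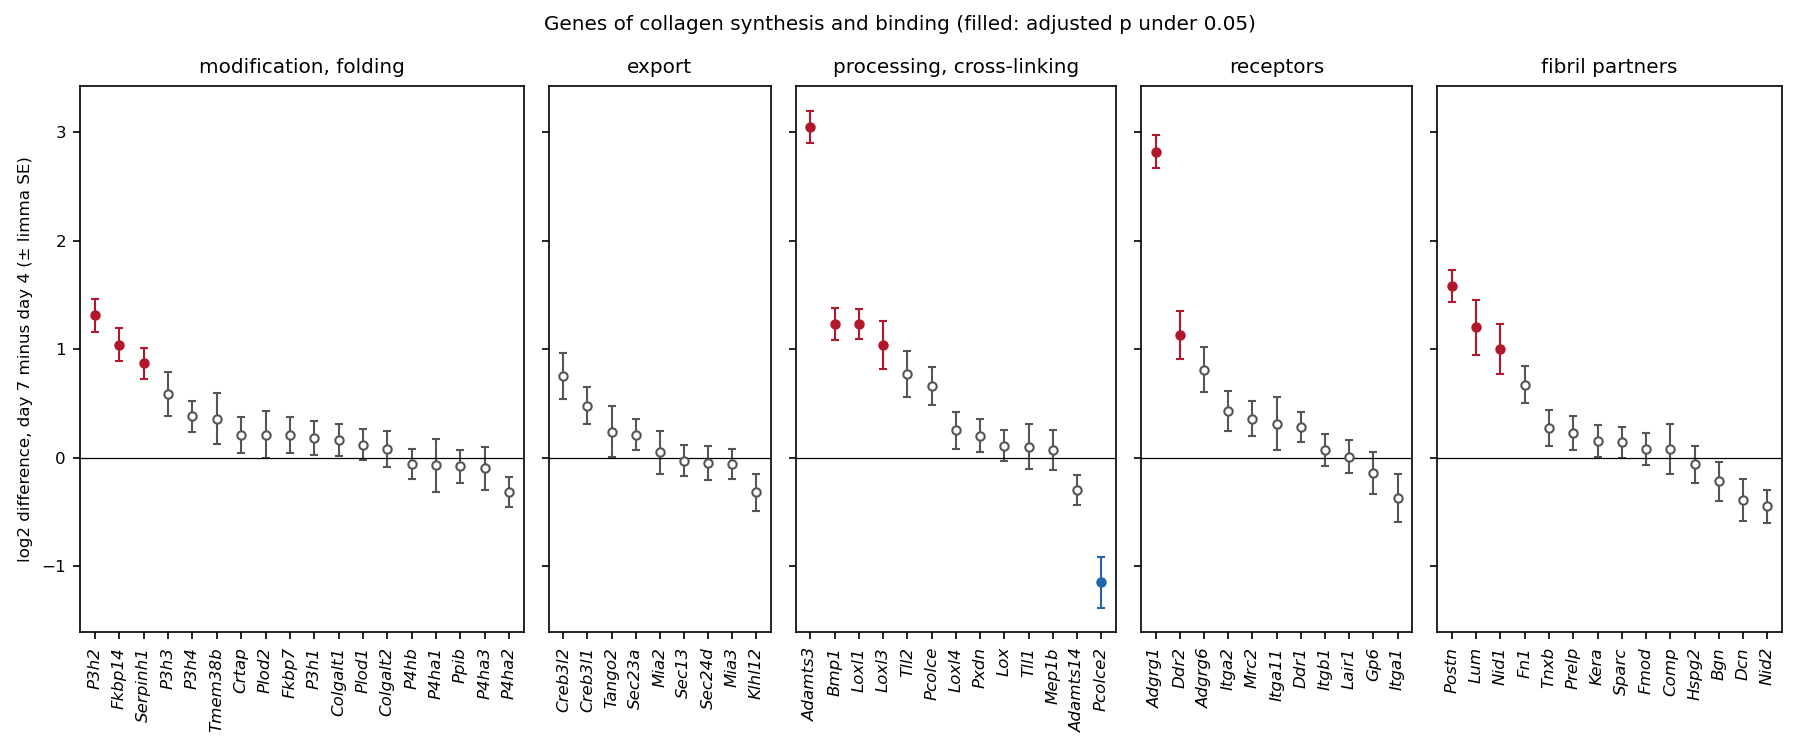
Log2 difference, day 7 minus day 4, of the 65 measured genes of collagen synthesis and binding in 5 lists along the x axis, with limma standard errors. Filled red points rose and the filled blue point (Pcolce2) fell at an adjusted p under 0.05; Adamts3 at 3.05 and Adgrg1 at 2.82 stand highest.

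The cell types that could hold these transcripts were read from marker lists. The count of each list stands beside all genes measured, of which 6.15% were called higher and 4.33% lower. The labelled tissue was checked first, and 6 of 9 eye field and neuroectoderm genes rose. Among them were Pax6 (11.1-fold), Lhx2 (8.86-fold) and Hes5 (7.85-fold, and 2.92-fold with the mean of its 2 probe sets). Rax, the gene of the reporter, rose 2.85-fold (adjusted p = 0.021), and 2.2-fold to 3.7-fold with 1 array left out. Six3, Six6 and Sox2 were not called (log2 differences 0.36, 2.00 and 0.22). The days of Six3 overlapped, and Six6 read 7.11 and 9.33 at day 7. The mean log2 signal over that list was 7.27 and 7.76 at day 4 and 9.28 and 9.52 at day 7. Of 13 mesenchyme and fibroblast markers 7 rose and 1 fell, with list means of 5.81 and 6.01 at day 4 and 6.85 and 6.81 at day 7. The smooth muscle actin gene Acta2 rose 10.4-fold and Prrx1 6.24-fold, while Thy1 was 5.26-fold lower. Both day 7 values lay below both day 4 values for Thy1 and for Dcn, and above them for 9 of the 13. Dcn was not called (log2 difference -0.39, adjusted p = 0.302). Postn and Lum stand in this list too, and Lum was the 1 of the 13 markers under the 25th percentile at both days. Of 9 neural crest markers 5 rose and 1 fell, with list means of 6.21 and 6.32 against 7.51 and 7.47. The gene that fell was Foxd3, 2.07-fold lower (adjusted p = 0.0253). Its adjusted p was 0.0638, 0.0666 and 0.171 when day 4 replicate 1, day 7 replicate 1 or day 7 replicate 2 was left out. Tfap2b rose 9.73-fold, Pax3 5.83-fold and Sox10 3.79-fold. Both day 7 values lay below both day 4 values for Foxd3 and for Erbb3, and above them for 7 of the 9. Erbb3 was not called (log2 difference -0.34, adjusted p = 0.196).

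Of 8 cartilage and notochord genes 3 rose, with list means of 5.33 and 5.58 at day 4 and 6.30 and 6.26 at day 7. They were Sox6 (9.49-fold), Sox5 (2.28-fold, adjusted p = 0.00999, and 0.0723 without day 7 replicate 1) and Sox9, a transcription factor known to act on Col2a1 and Col11a2 in cartilage. Sox9 read 6.37 and 7.83 at day 4 and 9.38 on both day 7 arrays, a rise of 4.88-fold (adjusted p = 0.0144, rising to 0.0903 without day 7 replicate 1 and to 0.0838 without replicate 2). Leaving out day 4 replicate 1 gave a fold of 2.94, and leaving out day 4 replicate 2 a fold of 8.1. The cartilage genes Acan and Matn1 were not called, with array values of 4.89 to 5.52 and 4.01 to 4.51, and the notochord gene Noto read 3.62 to 4.12. Both day 7 values of Acan and of Noto lay below both day 4 values (log2 differences -0.50 and -0.33, neither called). For Matn3 and Snorc both lay above (0.32 and 0.19, neither called), and the days of Matn1 overlapped. The endoderm list had 2 of 11 genes higher (Sox17 and Plat), with list means of 7.98 and 7.90 against 7.69 and 8.22. In that list 6 of 11 log2 differences were below 0. Both day 7 values lay below both day 4 values for Afp and Ttr (-0.70 and -0.64, neither called), and above them for 3 of the 11. The endothelial list had 1 of 8 higher (Kdr), with 5.90 and 5.90 against 5.83 and 6.16. Of these 8, 5 had log2 differences below 0. Both day 7 values lay below both day 4 values for Cldn5 and Eng (-0.68 and -0.58, neither called), and above them for 2 of the 8. Over the alternatives the adjusted p of Sox17, Plat and Kdr reached 0.205, 0.082 and 0.148. Of 8 pluripotency genes 3 fell, Fgf5, Utf1 and Pou5f1. The list means were 8.69 and 8.51 at day 4 and 7.35 and 7.65 at day 7. Both day 7 values lay above both day 4 values for Klf4 and Dppa3 (log2 difference 0.56 each, neither called), and below them for 5 of the 8. The days of Zfp42 overlapped. For 5 of the 8, the means of both days lay above the 50th percentile of gene means. The part of any of the listed cell types in the rise of the collagen genes was not tested. In aggregates measured whole, more cells of a type and more RNA per cell cannot be told apart.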

How the data were processed

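Total RNA of 4 aggregate samples, 2 per day, was amplified to sense cDNA and hybridised to Affymetrix gene arrays. The deposited values are log2 signals, and the submitters' processing notes name RMA (background correction, quantile normalization and probe set summary) and Partek 6.5. This makes the distributions of the arrays alike, so only changes relative to the other genes are seen. The annotation named 1 gene for 23521 of 41345 probe sets, several for 1814 and none here for 16010. The genes' IDs were matched to RefSeq GRCm38.p6. Probe sets naming 1 gene were kept, and the one with the highest mean stood for its gene (22180 genes).

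Day 7 was compared with day 4 with limma 3.58.1 in R 4.3.3 (lmFit and eBayes, two-sided, Benjamini-Hochberg adjustment over all 22180 genes, call at an adjusted p under 0.05), after a test on simulated data. With 2 arrays a group, the residual degrees of freedom were 2, and the variance prior pooled over genes added 5.066. The prior thus had the larger weight in each gene's variance. The number of arrays limits the precision (median SE 0.156). Every collagen gene is accounted for. Those called, or with a log2 difference of at least 0.5, are given array by array. Pathway genes are named if called with a difference of at least 1 (at most 6 a list), markers up to 3 a list by size, and Serpinh1, P4ha1, P4ha2, Plod1, Plod2, Lox, Ddr1, Ddr2 and Sox9 always. Plod3 was not analysed here. Acan, Matn1, Matn3, Snorc, Noto, Foxd3, Erbb3, Dcn, Rax, Six3, Six6 and Sox2 were named after their values were seen. So were Afp, Ttr, Cldn5, Eng, Klf4, Dppa3 and Zfp42. The collagen genes, classes, lists and rules were chosen with earlier results of these data known. The alternatives tried were a block for the replicate number, 1 array left out at a time, quantile normalization, centring, filters on dim genes, variance priors, the mean of probe sets and other limits.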

Additional observations from a re-analysis of the deposited data

How the results depend on the processing

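The count of 8 collagen genes ran from 3 to 13 when 1 array was left out, which leaves a day with 1 sample that is assumed to vary like the other day. It was 4 at an adjusted p limit of 0.01. The corresponding counts were 887 to 2500 and 1078 for all genes (2324 in the main analysis), and 7 to 14 and 8 for the pathway genes (13). The median log2 difference over the collagen genes, 0.120, ran from -0.027 to 0.330 with 1 array left out. It was 0.653 over the 12 collagen genes above the 50th percentile. Of the 29 collagen genes not called and with an absolute difference under 0.5, only 3 were among those 12. With the replicate number as a block (replicate block) 12 collagen genes, 19 pathway genes and 2770 of all genes were called, and all 8 collagen genes remained called. The labels do not say that a number pairs the samples, and same-numbered arrays had a correlation of deviations of 0.186 over only 2 pairs. Over 491 values of single collagen genes under the alternatives, 454 kept their side of the threshold, 15 lost a call, 22 gained one and 0 called values changed sign. With 2 arrays a group, a change of small size may not be called.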
